A study of Drosophila melanogaster with 2 samples.

Results

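The nuclear genes for mitochondrial ribosomal proteins were described here by the binding of the transcription factor Rotund (rn) fused to enhanced GFP. The members were the protein-coding genes on the main chromosome arms whose symbol begins with mRpL or mRpS followed by a digit. There were 73 of them among 13945 protein-coding genes, 47 for the large and 26 for the small subunit. Binding was measured by chromatin immunoprecipitation with sequencing (ChIP-seq) with an antibody against GFP, in 2 biological replicates of 1 group. The animals were whole pupae of unstated stage and sex that carry the transgene for the fusion, so all tissues were mixed and no cell type could be assigned. The labels describe an insertion aimed at rn and do not say in which cells the fusion was made. With 1 group and 2 replicates there was no comparison between conditions and no test, so all values below are descriptions.

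Mitochondria keep their own ribosome, which makes the few proteins that the mitochondrial genome encodes, all of them parts of the respiratory chain or of ATP synthase. Every protein of that ribosome is made from a nuclear gene and imported. Some of these proteins, such as those of mRpS2, mRpS10, mRpL2, mRpL20, mRpL23, mRpL24, mRpL32 and mRpL34, have counterparts in bacterial ribosomes. Others, such as those of mRpL39, mRpL41 and mRpS23, were added in the mitochondrial lineage. Rotund, a zinc finger transcription factor, is known from work on limb and wing development.

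The sequence under the summit of a peak, its highest point, was rich in A and T at most of these genes. The 101 bp centred on the summit are given for 6 of the 7 strongest member promoter peaks, to show how far they are alike, and for the weakest peak at a member start. They were read from the Release 6 genome on the strand of the member, and capitals mark TTAAAA or TAATTA on either strand.
mRpS10, chr3R:15229488-15229588, plus strand: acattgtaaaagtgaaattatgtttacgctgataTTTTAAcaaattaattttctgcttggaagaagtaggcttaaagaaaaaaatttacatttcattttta
mRpS23, chr2L:13835419-13835519, minus strand: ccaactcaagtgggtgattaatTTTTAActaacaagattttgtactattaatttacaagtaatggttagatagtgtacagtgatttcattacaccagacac
mRpL23, chr3L:2373543-2373643, minus strand: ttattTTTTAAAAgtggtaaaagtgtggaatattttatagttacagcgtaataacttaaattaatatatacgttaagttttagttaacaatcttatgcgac
mRpL24, chr2L:4945433-4945533, minus strand: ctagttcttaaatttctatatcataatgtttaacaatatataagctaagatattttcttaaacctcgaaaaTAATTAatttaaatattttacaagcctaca
mRpS2, chr2L:4850541-4850641, minus strand: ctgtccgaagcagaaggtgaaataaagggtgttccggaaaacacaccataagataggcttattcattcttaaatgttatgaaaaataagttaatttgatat
mRpL20, chr3L:13018089-13018189, minus strand: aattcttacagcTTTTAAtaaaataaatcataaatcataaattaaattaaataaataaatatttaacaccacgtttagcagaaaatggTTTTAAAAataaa
mRpL2, weaker of its peaks, chr3L:11120719-11120819, plus strand: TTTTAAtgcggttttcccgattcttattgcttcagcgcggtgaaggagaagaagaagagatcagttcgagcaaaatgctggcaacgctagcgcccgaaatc

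Among these windows G and C made up 22.8% at mRpS10, 30.7% at mRpS23, 22.8% at mRpL23, 19.8% at mRpL24, 32.7% at mRpS2 and 15.8% at mRpL20. The longest stretch of A and T alone was 30 bp at mRpL20 and 24 bp at mRpL24. mRpS2 differed from the other strong peaks, with a longest such stretch of 8 bp and neither TTAAAA nor TAATTA. The weak mRpL2 window held 47.5% G and C, the highest of the member promoter summits, and its longest such stretch was 7 bp.

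A peak was given to a gene when its summit lay in the gene or up to 1000 bp upstream, and was called a promoter peak when the summit lay within 500 bp of an annotated transcript start. Most mitoribosomal genes had no peak in the authors' thresholded set over both replicates. In that set, 13 of the 73 genes had a peak, or 17.8%, against 18.3% of all protein-coding genes. A promoter summit was present at 11 of the 73, or 15.1% (95% Wilson interval 8.63 to 25, which covers counting error over genes only), against 12.1% of all protein-coding genes. Both counts were near the share over all genes. The large subunit contributed 8 of the 11 and the small subunit 3.

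The sets of the single replicates were smaller, with 2375 and 2112 peaks on the main arms against 3774. The conservative set over both replicates gave the same picture. There 12 members (16.4%) had a peak, against 17.8% of all genes, and 10 (13.7%) had a promoter summit, against 11.7%. In the set of replicate 1 alone 11 members (15.1%) had a peak, against 13.1% of all genes, and 10 had a promoter summit, against 8.27%. In the set of replicate 2 alone 10 members (13.7%) had a peak, against 12.4%, and 9 had a promoter summit, against 7.9%. The member shares of promoter summits were 13.7% in replicate 1 (Wilson interval 7.61 to 23.4) and 12.3% in replicate 2 (6.62 to 21.8). No member had a peak in one of these 3 sets without having one in the set over both.

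**Figure D1:**
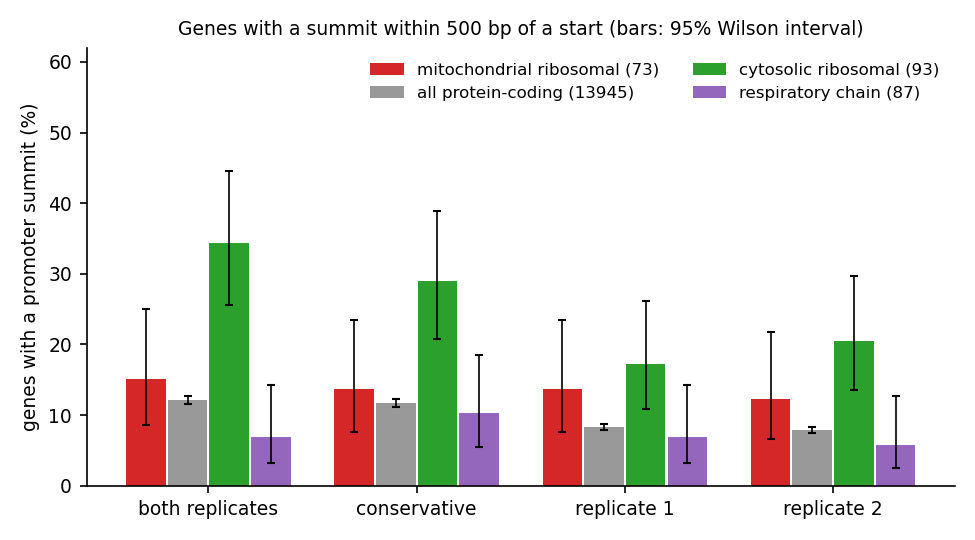
Share of genes with a summit within 500 bp of a start (y axis, percent) in each of the 4 thresholded lists (x axis), for the mitoribosomal genes, all protein-coding genes and the cytosolic ribosomal and respiratory chain genes. Bars are shares and whiskers 95% Wilson intervals over genes. The mitoribosomal share lies between 12.3% and 15.1% and its interval holds the share of all genes in each of the 4 lists.

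The few members with a promoter peak stood high in the list. Signal is the peak height that the authors' caller gave and is not scaled between lists, so ranks were taken within a list of 3774 peaks on the main arms. Of the 20 strongest peaks, 4 lay at member starts, and 22 protein-coding genes had a start at these 20. Of the 11 members, 7 had their strongest promoter peak above the upper quartile of all peaks (119), or 63.6% (Wilson interval 35.4 to 84.8), against 33.8% of the 1693 protein-coding genes with a promoter summit. Their median percentile in the list was 94.6, and 10 of the 11 lay above the median of the list (79.7). The median strongest promoter signal of the 1693 genes was 89.0, which also lies above it. That mRpL41 and mRpS10 are among the strongest peaks was known when these genes were chosen, so these figures are not independent evidence.

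mRpL41, a large subunit gene, had the highest signal of the members, 980 (rank 3, chr2R:15217629-15217877), with 492 in replicate 1 and 486 in replicate 2. mRpS10 followed with 826 (rank 7, chr3R:15229410-15229667), and with 430 and 402 in the replicates. The values of the 2 replicates were close at both genes, and their ranks were 3 and 3 for mRpL41 and 6 and 5 for mRpS10. The small subunit gene mRpS23 had a signal of 664 (rank 17, chr2L:13835355-13835573), with 352 and 318 in the replicates. The large subunit gene mRpL23 had 637 (rank 19, chr3L:2373476-2373705), with 339 and 293. Below these 4 genes the signal dropped from 637 to 315 at the next member.

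That next member was mRpL24, with 315 (rank 124, chr2L:4945408-4945544) and with 133 and 175 in the replicates. mRpS2 had 249 (rank 203, chr2L:4850517-4850639), with 125 and 121. mRpL20 had 189 (rank 394, chr3L:13017991-13018286), with 86.8 and 94.7. Replicate 1 gave the higher value at mRpS2 and replicate 2 at mRpL24 and mRpL20. Over the 8 members with a promoter peak in both single-replicate sets, replicate 1 was higher at 5. Over all 5645 genes with a ranked value in both replicates, replicate 1 was higher at 3224, with a median ratio of 1.08. Signal is not scaled between lists, so these directions say nothing particular about the members. The ratio of replicate 1 to replicate 2 at the 8 members ran from 0.761 at mRpL24 to 1.16 at mRpL23, and the summits lay 1 to 10 bp apart with a median of 6 bp.

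The last 4 members had weaker peaks, and 3 of them were not called in both replicates. mRpL32 had 94.6 (rank 1414, chr3R:31252599-31252894) over both replicates, 58.9 in replicate 2 and 34.8 in replicate 1, where it was ranked but not thresholded. mRpL34 had 94.1 (rank 1426, chr2R:16098552-16098847), with 46.6 and 48.5, and was thresholded in both replicates. mRpL39 had 92.0 (rank 1481, chr3L:14999635-14999930), with 57.5 in replicate 1 and 29.6 in replicate 2, where it was ranked but not thresholded. So mRpL32 and mRpL39 were each thresholded in 1 replicate, and not in the same one.

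mRpL2 was the promoter call on which the replicates differed most. Its stronger peak had 69.9 (rank 2271, chr3L:11120415-11120710), with 54.9 in replicate 1 and 10.9 in replicate 2. The latter had a score of 78. The score runs up to 1000 and is higher where a peak has a lower irreproducible discovery rate (IDR), a measure of how poorly a peak recurs, and a score of at least 830 was needed for the thresholded sets. The conservative set held no peak at mRpL2, and in the ranked list it was drawn from the stronger peak scored 50. In the set over both replicates both mRpL2 peaks scored 1000. A top score there thus did not require a thresholded peak in each replicate. The second mRpL2 peak, at chr3L:11120621-11120916, overlaps the first, had a signal of 4.49 at rank 3755 and need not be a separate site.

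**Figure D2:**
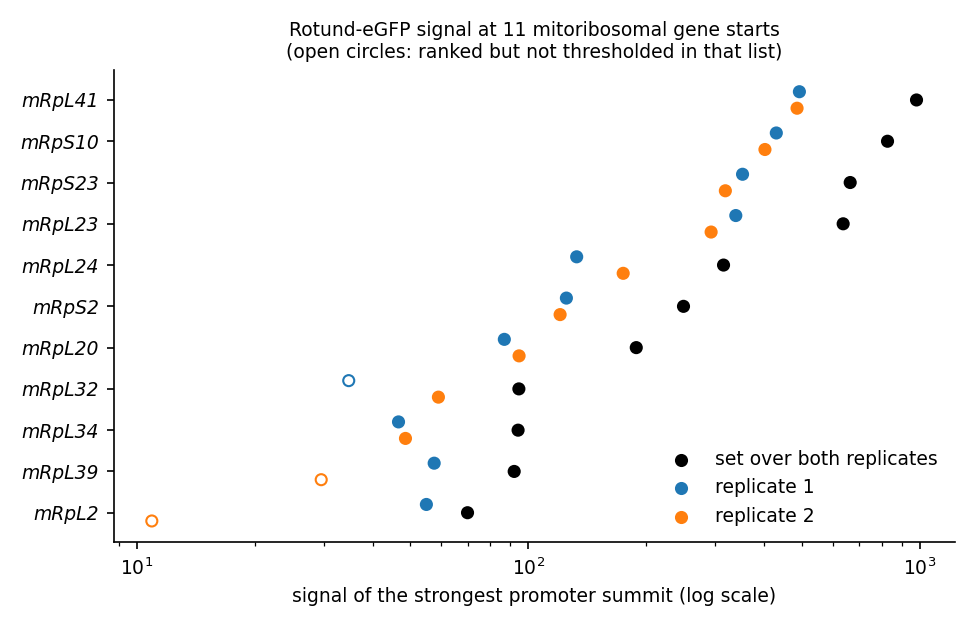
Signal of the strongest summit within 500 bp of a start (x axis, log scale, authors' units) for each of the 11 members with a promoter summit (rows), in the set over both replicates and in each replicate. Filled circles are thresholded in that list and open circles are only ranked. The 4 upper genes lie at or above 293 in every list, and the open circles are at mRpL32, mRpL39 and mRpL2.

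**Figure D3:**
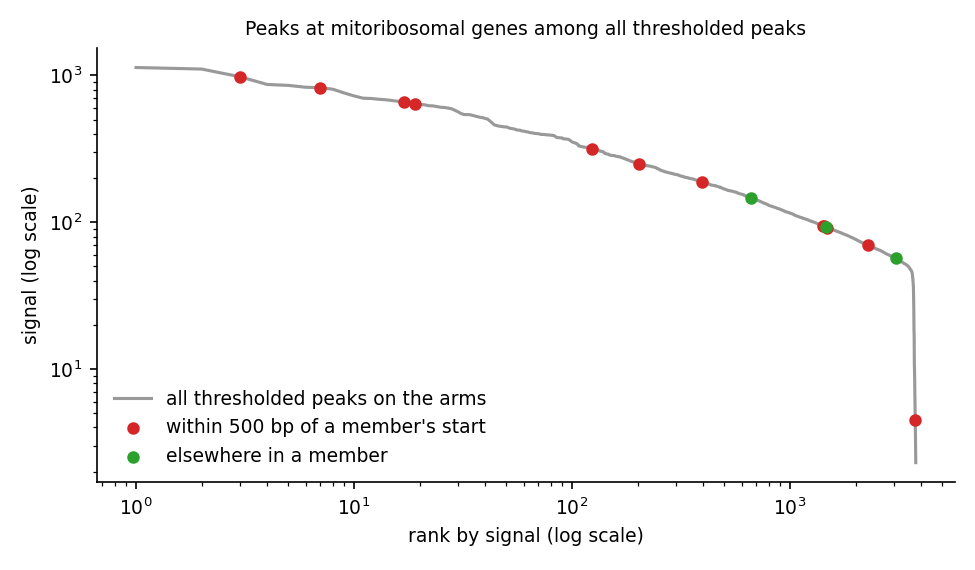
Signal (y axis, log scale) against rank (x axis, log scale) for all 3774 thresholded peaks over both replicates, with the peaks at mitoribosomal genes marked. Of the red promoter peaks, 4 lie among the first 20 ranks, and the lowest, at rank 3755, is the weaker mRpL2 peak.

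A further 2 members had peaks away from their own starts. In mRpS9, a small subunit gene with a long intron, peaks of 147 (rank 662, chr3R:7895626-7895705) and 93.1 (rank 1455, chr3R:7892742-7893037) lay in that intron, 7017 and 9777 bp downstream of its nearest start. Both also lay in an intron of wtrw, a gene for a TRP channel on the opposite strand, and the stronger lay 172 bp upstream of a wtrw start. The values of the stronger peak were 58.8 and 89.97 in replicates 1 and 2, and the weaker had 50.4 in replicate 1 and was not thresholded in replicate 2. The large subunit gene mRpL48 had a peak of 56.7 (rank 3055, chr2L:1711013-1711308) in its coding sequence, 699 bp downstream of its start, which neither single-replicate set held.

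At every one of the 11 members, a second gene also began within 500 bp of the summit. Of all 1469 promoter peaks in the set, 35.6% lay within 500 bp of the starts of 2 or more genes, a share by peak. Counted by gene, 924 of the 1693 protein-coding genes with a promoter summit had another protein-coding start within 500 bp of their own. The same held for 10 of the 11 members. In 10 of the 11 members the other gene is protein-coding and runs away on the opposite strand. In 10 the summit lay between the starts of the 2 genes, with the start nearest the summit used for each gene. The gap between the starts was 50 to 578 bp with a median of 285 bp. The summit was nearer to the start of the member in 5 cases and to that of the other gene in 6. For these promoters ChIP-seq peaks do not tell which of the genes, if either, the bound factor acts on.

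At mRpS10 the summit lay 127 bp from the start of the member and 130 bp from that of Art3, a gene for an arginine methyltransferase. mRpL32 was placed in the same way, 125 bp away against 139 bp for qless, which encodes an enzyme of coenzyme Q synthesis. At mRpL39 the distances were 117 bp and 168 bp for the proteasome subunit gene Prosbeta2. So these 3 summits lay near the middle of the shared region, somewhat nearer to the member. The summit of mRpL24, given below, was also near the middle (122 and 96 bp) but nearer to the partner.

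At mRpS2 the summit lay 172 bp from the start of the member and 50 bp from that of Mon1, a gene of endosome maturation. The summit near mRpS23 lay 397 bp from its start and 95 bp from that of CenG1A, which encodes an Arf GTPase-activating protein. The distances were 122 and 96 bp at mRpL24 and betaggt-I, 272 and 127 bp at mRpL20 and Icmt, 248 and 136 bp at mRpL34 and Dg, and 284 and 152 bp at mRpL2 and FoxK. The products of the partners betaggt-I and Icmt act in protein prenylation and the processing that follows it. Dg encodes dystroglycan and FoxK a forkhead transcription factor. At all 6 pairs the start of the partner was the nearer.

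At mRpL23 the summit lay in an intron of the gene, 85 bp downstream of the nearest of its 3 annotated starts, and 135 bp from the start of CG9004. In replicate 1 the summit lay 85 bp upstream of another of these starts. Its position relative to the start of mRpL23 thus depends on the start chosen. At mRpL41 the other start was that of lncRNA:CR44463, on the same strand, at a distance of 438 bp, and its own start was 140 bp away. mRpL41 was thus the only one of the 11 with no start of another protein-coding gene within 500 bp of its own.

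**Figure D4:**
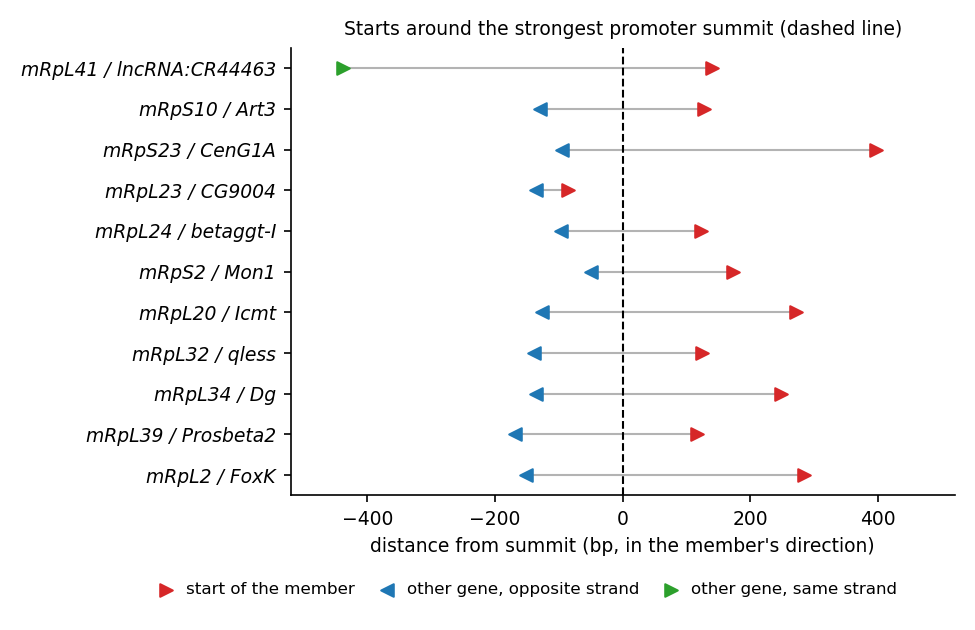
Position of the member's start (red) and the other gene's start (blue on the opposite strand, green on the same strand) relative to the summit of the strongest promoter peak (dashed line at 0), in bp along the member's direction of transcription (x axis), for the 11 members (rows, strongest on top). In 10 rows the summit lies between the starts. At mRpL23 both starts lie on one side, with only the nearest of its annotated starts drawn.

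Starts placed back to back are common among these genes whether or not they had a peak. Of the 73 members, 53 (72.6%) had a protein-coding start on the opposite strand upstream within 500 bp, against 26.8% of all protein-coding genes. Of those 53, 10 (18.9%) had a promoter summit, against 22.3% of the 3735 such genes overall. Of the 19 members with no other protein-coding start within 500 bp, 1 (5.26%) had a promoter summit, against 7.98% of the 9636 such genes. Within both arrangements the member share was thus close to, and slightly below, that of all genes. By chromosome arm, promoter summits were found at 3 of 12 members on 2L, where 12.2% of all protein-coding genes had one, and at 4 of 17 on 3L, against 13.8%. They were found at 2 of 12 members on 2R, against 11.96%, at 2 of 21 on 3R, against 11.9%, and at 0 of 11 on X, against 11.0%. With so few members on each arm, the arms were not compared.

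Below the threshold the ranked lists, which hold 126185 peaks on the arms over both replicates, show what was measured at the other 62 members. Of these, 45 had a ranked summit within 500 bp of a start and 17 had none. Their strongest signals ran from 6.08 to 47.5 with a median of 22.7, and none reached the threshold score. The 11 members with a promoter summit ran from 69.9 to 980 in the same list, and the threshold was set on the score of that list.

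The strongest of the 62 was mRpL19, a large subunit gene, with 47.5 and a score of 804, just under the threshold, and with 27.8 and 19.7 in the replicates. mRpL51 had 44.3 (23.1 and 17.2) and mRpS22 39.8 (30.7 and 17.7), with scores of 527 and 674. mRpL47 had 37.9 (16.4 and 18.4) with a score of 600. In these 4 genes the ranked lists of both replicates held a summit. mRpS18B had 42.0 and mRpS29 35.7, with 21.4 and 18.7 in replicate 1 and no ranked summit in replicate 2. mRpS26, mRpS31, mRpL37 and mRpL42 had 37.0, 35.3, 35.2 and 31.8, with scores from 51 to 308. The second ranked list over both replicates, from which the conservative set was drawn, also held a summit of 45.7 at mRpL53 that the first lacks.

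Over all 73 members the strongest ranked promoter signal had a median of 19.4 with genes lacking a summit counted as 0, against 19.9 over all protein-coding genes. The upper quartiles were 35.3 and 32.5, and the 90th percentiles 94.5 and 62.3. The medians were thus alike, and the members were higher in the upper tail. Large and small subunit genes had medians of 20.4 and 17.7. Over the 11 members with a promoter summit the replicates' ranked signals had a Spearman correlation of 0.918 and, on the log2 scale, a Pearson correlation of 0.885. Over the 19 other members with a summit in both replicates these were 0.158 and 0.139, and over all 5645 genes with both values 0.681 and 0.801. These are correlations across genes, which share the 2 libraries and are not independent replicates. The 11 were picked by a threshold on the score, and ran from 69.9 to 980 over both replicates. The other members ran only up to 47.5, so the correlations of the 2 groups cannot be compared as measures of agreement.

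**Figure D5:**
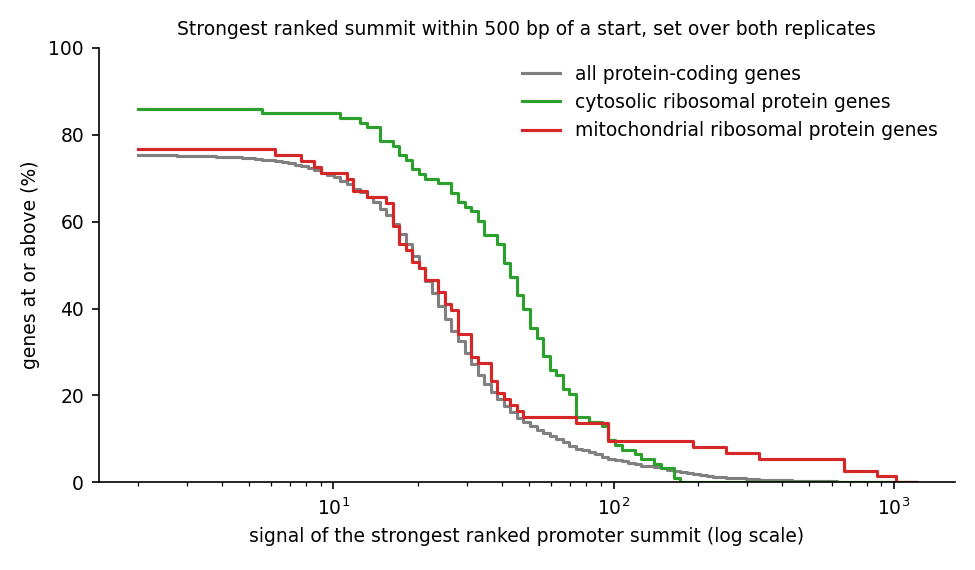
Percentage of genes (y axis) whose strongest ranked summit within 500 bp of a start is at or above a given signal (x axis, log scale), over both replicates, for mitochondrial ribosomal, cytosolic ribosomal and all protein-coding genes. The red and grey curves lie close together at low signals, with medians of 19.4 and 19.9. Between 47.5 and 980, the highest member, the red lies over the grey, while the green is the highest at low signals and ends at 172.

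Cytosolic ribosomal protein genes encode the proteins of the other ribosome of the cell. A promoter summit was found at 32 of 93 (34.4%, Wilson interval 25.5 to 44.5) in the set over both replicates, with a median signal of 70.0 and a maximum of 172 at RpS27. That count was 27 in the conservative set, 16 (17.2%, interval 10.9 to 26.1) in replicate 1 and 19 (20.4%) in replicate 2, so it was lower in the single replicates, where 13.7% and 12.3% of the mitoribosomal genes had one. The 11 mitoribosomal genes had a median signal of 249 in the set over both. The list of nuclear respiratory chain genes also holds those of ATP synthase. Most of these complexes, but not all, hold products of the mitochondrial ribosome. A promoter summit was found at 6 of the 87 genes (6.90%, interval 3.20 to 14.2), with a median of 107 and a maximum of 208 at ND-ASHI. In the conservative set there were 9 (10.3%), with a median of 64.6. The difference between these lists was not tested.

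Other genes of mitochondrial gene expression are read against the 12.1% of all protein-coding genes with a promoter summit. Of 10 mitochondrial translation factor genes 2 (20%, Wilson interval 5.67 to 51.0) had a promoter summit. They were mIF2 (81.2), an initiation factor gene, and mEFTu1 (51.7), an elongation factor gene. The count was 1 in the conservative set, 1 in replicate 1 and 0 in replicate 2. waw, a GTPase gene of the same list, had a peak of 217 away from its starts. Of 19 genes for mitochondrial tRNA synthetases and related enzymes 2 (10.5%) had a promoter summit, GatA (108) and ProRS-m (69.5), and LeuRS-m had a peak of 208 elsewhere. Of 17 genes for mitochondrial transcription, DNA maintenance and RNA processing 1 (5.88%) had one, the exoribonuclease gene PNPase, with 831 at rank 6. tko and bonsai, mitoribosomal protein genes named otherwise, had neither a thresholded peak nor a ranked promoter summit over both replicates.

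Within 50 bp of the 12 member promoter summits G and C made up 28.1% ± 8.19 (SD, 12 windows, one of them the weak mRpL2 peak), against 34.9% ± 10.9 at all 1469 promoter summits. Each of the 12 windows held less G and C than the 101 bp around the start of its own member, which ran from 34.7% to 54.5%. This comparison was not made for all promoter summits. Their mean of 34.9% was also below the 38.7% at the starts of protein-coding genes with a promoter summit. That start window ran from 250 bp before to 50 bp after the start. TTAAAA was found in 9 of the 12 (75%), against 34.7% of all promoter summits. In the start window, which is wider, TTAAAA was present at 10 of the 11 members with a promoter summit (90.9%). It was also there at 42 of the 62 members without one (67.7%), against 53.4% of all protein-coding genes. A high share of TTAAAA was thus not limited to members with a promoter summit. The 6-mers with the largest excess over all promoter summits were TTAAAA, then TAAAAA (75%, against 36.4%) and also AAAATA (75%, against 37.9%), all of A and T alone. Whether they differ beyond the base composition was not tested. AAAAAAA was found in 3 windows (25%, against 17.9%), TAATTA in 1 (8.33%, against 9.53%), CCGGAA in 1 (8.33%, against 1.91%) and GCCAT in 2 (16.7%, against 13.8%). None held TATCGATA or the core promoter motif GGTCACAC (1.70% and 0.681% of all promoter summits). None held TCACACT or the pattern CAGCNCTA (1.91% and 1.23%). None held the E-box CACGTG or the palindrome TGCGCA (0.613% and 2.31%). None held GAGAG, the letters of GAGA elements, or the run CTTTTC (10.9% and 7.62%). With shares this low, absence from 12 windows does not set the members apart. All 13 motifs were searched on both strands, TTAAAA can overlap AAAAAAA and TAATTA, and GGTCACAC can overlap TCACACT.

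The DNA replication-related element TATCGATA, a promoter element that the factor Dref is known to bind in flies, was found near member starts. None of the 12 member summit windows held it. It was also rare over all promoter summits (1.70%), and the start window used is wider than the 101 bp at summits. In the window from 250 bp before to 50 bp after a start the element was present at 15 of 73 members (20.5%), against 9.37% of all protein-coding genes. It was there at 4 of the 11 with a promoter summit (36.4%) and 11 of the other 62 (17.7%). GGTCACAC was present at 8 of 73 members (11.0%, against 7.71%), none of them with a promoter summit. Back-to-back genes share much of this window, so the members and their partners are not separate cases.

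The 41 bp around the element are shown for these 4 members, on the strand of the member with the element in capitals, because they place it between the summit and the start.
mRpS23, chr2L:13835057-13835097, minus strand: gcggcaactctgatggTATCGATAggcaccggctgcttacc
mRpS23, chr2L:13835257-13835297, minus strand: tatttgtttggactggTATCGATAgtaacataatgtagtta
mRpL20, chr3L:13017853-13017893, minus strand: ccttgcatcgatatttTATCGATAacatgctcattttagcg
mRpL32, chr3R:31252829-31252869, plus strand: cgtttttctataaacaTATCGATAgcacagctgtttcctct
mRpL39, chr3L:14999674-14999714, minus strand: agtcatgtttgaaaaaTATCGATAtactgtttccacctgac

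The first base of the element nearest the start lay 9 bp upstream of it at mRpS23, 10 bp at mRpL20, 27 bp at mRpL32 and 32 bp at mRpL39. The distance from the summit to the centre of that element was 392 bp at mRpS23, 266 bp at mRpL20, 102 bp at mRpL32 and 89 bp at mRpL39, so the element and the summit did not coincide at any of them. The second element at mRpS23 lay 192 bp from the summit.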

How the data were processed

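The 2 replicates were grouped and numbered by the labels. Per the labels, coordinates are on dm6. The authors deposited lists of peaks for single replicates and for the 2 combined. Signal values are those of the authors' peak caller, as deposited. The score in the deposited lists is the IDR rescaled, with 830 for an IDR of 0.01. Ranked lists as deposited also hold the IDR as −log10. Aligner and caller: not given in the sources used here. Read depth is unknown and control libraries were not analysed here. Each summit (peak start plus offset) was placed on Ensembl release 115 gene models (BDGP 6.54) and on the Release 6 genome, which have the coordinates of dm6, with 1-based positions. No peak ended beyond its arm. Starts of all annotated genes were used for promoter summits. Peak placement was tested on simulated peaks with known positions. Of the fixed lists, 19 of 21 tRNA synthetase, 17 of 20 transcription and RNA and 10 of 14 translation factor symbols matched. The genes named were the members with a peak, the 10 strongest without, the partners of shared starts and up to 4 per other list, and mRpL53 was named after its values were seen. Members, lists and motifs were chosen with earlier results of these data known. Tables were handled with pandas 2.3.3 and numpy 2.4.6 in Python 3.11.15, Wilson intervals came from scipy 1.17.1, and plots from matplotlib 3.10.9.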

Additional observations from a re-analysis of the deposited data

How the results depend on the processing

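The number of members with a peak (13 of 73) rose to 20 of 73 with 5000 bp upstream counted, where 27.1% of all protein-coding genes had one. It fell to 6 of 73 when each peak went to the nearest protein-coding start (16.9% of all genes). The number with a promoter summit (11 of 73) was 5 of 73 with the nearest start, where 9.06% of all genes had one. The start of the other gene was the nearer at 6. The other alternatives were the conservative set, each replicate alone, an IDR of 0.001, promoter widths of 250 and 1000 bp and the peak interval in place of the summit. They gave 10 to 13 members with a peak and 9 to 12 with a promoter summit. At an IDR of 0.001, 10 members (13.7%) had a promoter summit against 7.79% of all genes, a wider gap than in the main set. The counts were 9 of 73 (12.3%) against 9.25% at 250 bp and 12 (16.4%) against 14.7% at 1000 bp. By the interval 11 members (15.1%) had one, against 13.1%. The share of members with their strongest promoter peak in the upper quartile stayed between 55.6% and 77.8%. Of the single genes, mRpL2, mRpL32, mRpL39, mRpL48 and mRpS9 had fewer peaks in at least 1 other list. No paired analysis was possible because there is 1 group. With peak lists alone, the read depth behind a missing peak is unknown.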
